A study of Homo sapiens with 16 samples.

Results

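LRRC61, ZBED10P, B3GALNT1, FUCA2 and C9orf64 are 5 of the 26410 genes counted in SH-SY5Y cells, a human neuroblastoma line. They were chosen by measured values, since their RNA was far lower in clones labelled TRPM2 KO than in scrambled control clones of the same line. For all but C9orf64 the KO mean was under 10% of the Scr mean in both treatments. TRPM2 encodes a calcium-permeable ion channel. The untreated and the doxorubicin libraries were both used in that choice, so the KO against Scr values of these 5 genes are given below as a description, with no test.

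The 16 libraries came from 2 KO clones (KO11 and KO28) and 2 Scr clones (Scr13 and Scr16), each untreated and after 24 h of doxorubicin, with 2 replicates of each. Every clone received a Cas9 and guide plasmid together with a donor carrying GFP and puromycin resistance, and was selected in puromycin. The guide was aimed at TRPM2 in the KO clones and was scrambled in the Scr clones. The sample labels give 0.3 µM doxorubicin, a drug that damages DNA, while the design text of the series gives 3 µM. Each clone grew from 1 cell, so each genotype is represented by 2 clones. Between 10481177 and 25086085 reads per library fell on genes. Values are normalized CPM, that is, read counts made comparable between libraries by the authors' scaling to a common sequencing depth, and 3 reads were worth 0.118 to 0.285 normalized CPM. The methods of the study call the replicates biological, and no source used here says how they were grown apart, so p-values measure the spread between libraries of these clones.

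The 5 genes have different roles. B3GALNT1 is the glycosyltransferase that adds N-acetylgalactosamine to globotriaosylceramide, giving globoside, a sphingolipid of the cell surface. FUCA2 is an alpha-L-fucosidase, an enzyme that takes fucose off glycans. C9orf64, now named QNG1, releases queuine from queuosine nucleotides so that the modified base can be reused in transfer RNA. ZBED10P, which GENCODE 29 lists as the protein-coding gene ZBED6CL, belongs to a family of BED zinc finger genes that arose from transposons. LRRC61 encodes a leucine-rich repeat protein.

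On GRCh38 the genes lie at 4 loci. LRRC61 (ENSG00000127399) is at chr7:150322639-150338150 on the plus strand. ZBED10P (ENSG00000188707) is at chr7:150329789-150332721 on the same strand, between the exons of LRRC61, with which it shares 0 exon bases. Reads from unspliced LRRC61 RNA and from ZBED10P cannot be told apart there, and the pair was not treated as independent. B3GALNT1 (ENSG00000169255) is at chr3:161083883-161105384 on the minus strand, FUCA2 (ENSG00000001036) at chr6:143494811-143511690 on the minus strand, and C9orf64 (ENSG00000165118) at chr9:83938311-83956986 on the minus strand. TRPM2 is on another chromosome.

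The TRPM2 guide given in the labels is shown to compare its letters with the transcripts of the 5 genes, with all bases in lower case.
TRPM2 guide: gaggaaagctggctcggagc
Beside an NGG, on either strand, it matched TRPM2 transcripts with 0 mismatches over its 20 bases. The nearest match was 7 mismatches in LRRC61 and FUCA2 transcripts, as few as in 11.4% of 58575 genes, 8 in B3GALNT1 and C9orf64 (31.8% of genes) and 9 in ZBED10P (54.9%). Only GENCODE 29 transcripts were searched, so promoters and introns were not covered.

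Bases just upstream of the start sites are shown for FUCA2 and B3GALNT1, where these lie outside annotated exons, because the genes were low together. CpG dinucleotides, the letters CG, are in capitals, the sequence is that of RefSeq on GRCh38.p14, and both stretches are read on the minus strand.
FUCA2, chr6:143511721-143511970: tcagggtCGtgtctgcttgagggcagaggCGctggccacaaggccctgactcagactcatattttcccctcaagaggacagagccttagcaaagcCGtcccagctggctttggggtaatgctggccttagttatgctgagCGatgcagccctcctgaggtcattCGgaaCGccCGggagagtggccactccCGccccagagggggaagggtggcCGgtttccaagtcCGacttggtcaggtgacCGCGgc
B3GALNT1, chr3:161105385-161105599: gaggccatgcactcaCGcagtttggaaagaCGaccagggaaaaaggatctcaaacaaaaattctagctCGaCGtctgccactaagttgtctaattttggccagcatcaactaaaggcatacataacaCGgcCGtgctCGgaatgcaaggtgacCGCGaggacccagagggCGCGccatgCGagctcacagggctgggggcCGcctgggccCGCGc
FUCA2 had 12 CpG in the 250 bases before its start, and 48.5% of 35116 RefSeq promoters had as many or more, around a median of 11. Over the same length LRRC61 had 29 CpG, reached by 14.1% of promoters, and C9orf64 had 23 (25.8%). The 3 annotated starts of B3GALNT1 had 20 (32.4%), 26 (19.6%) and 28 (15.9%). The B3GALNT1 stretch shown is the 215 bases of the first of these windows that lie outside exons, with 15 CpG. No promoter entry was matched for ZBED10P. Sequence letters alone do not give methylation, which was not measured.

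TRPM2 itself, the targeted gene, was not lower in the libraries labelled KO. Untreated, it was at 1.93 and 2.23 normalized CPM in KO11, 1.41 and 2.19 in KO28, 0.118 and 0.115 in Scr13 and 0 in both Scr16 libraries. After doxorubicin it was at 1.22 and 1.83 in KO11, 1.37 and 0.658 in KO28, 0.0594 and 0.0631 in Scr13 and 1.33 and 0.390 in Scr16. TRPM2 was thus higher in untreated KO libraries (log2 fold change 1.47, SE 0.27, adjusted p = 0.00154, limma) and its groups overlapped after doxorubicin (0.69, SE 0.33, adjusted p = 0.249, limma). Untreated it passed the filter on low values (1 normalized CPM in 4 of 8 libraries) through the KO libraries alone, and with no filter its adjusted p was 0.00158 (limma). Per the methods of the study, the deletion took only the start of the coding sequence and put the rest out of frame, and the KO cells were checked by RT-PCR and Western blot. Reads from the rest of the gene can thus be counted in KO clones, and the gene-level count does not show the deletion itself. That bears on the KO libraries alone. The 4 untreated Scr libraries held 5 TRPM2 reads in all against 123 in KO, although the study describes TRPM2 as highly expressed in neuroblastoma. The cause of the low Scr counts was not tested, and the labels were taken as given. Directions below are those of the libraries labelled TRPM2 KO.

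LRRC61 had the lowest share left. No read fell on it in any of the 4 untreated KO libraries, while the 4 untreated Scr libraries held 13.9 and 19.8 (Scr13) and 25.4 and 16.0 normalized CPM (Scr16). The mean of 18.8 ± 5.06 normalized CPM (SD, n = 4) in Scr was at least 98.0-fold higher than in KO, taking 3 reads per library as the floor. After doxorubicin LRRC61 was at 0 and 0.315 in KO11, 0.589 and 0.538 in KO28, 25.0 and 24.3 in Scr13 and 21.1 and 13.4 in Scr16. KO libraries held 23 reads in all against 1235 in Scr, and the KO mean (0.360 ± 0.268) was 1.72% of the Scr mean (21.0 ± 5.29; SD, n = 4), or 0.751% for KO11 alone and 2.69% for KO28 alone.

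ZBED10P, inside LRRC61, followed at a lower level. Untreated, it was at 0.220 and 0 normalized CPM in KO11, 0 in both KO28 libraries, 3.94 and 9.79 in Scr13 and 4.97 and 3.75 in Scr16. After doxorubicin it was at 0 in both KO11 libraries, 0.523 and 0 in KO28, 8.79 and 10.3 in Scr13 and 2.95 and 1.82 in Scr16. The groups did not overlap. With KO means under 3 reads per library, the Scr mean was at least 29.3-fold higher untreated (5.61 ± 2.84) and at least 31.6-fold higher after doxorubicin (5.98 ± 4.22; SD, n = 4). All KO reads came from 1 library in each treatment, and without it the KO mean was 0.

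B3GALNT1, the globoside synthase, kept a trace. It was at 1.10 and 0.602 normalized CPM in untreated KO11 and 2.01 and 0 in KO28, against 29.3 and 31.6 in Scr13 and 33.8 and 35.0 in Scr16. After doxorubicin the values were 1.02 and 0.126 in KO11, 1.18 and 1.26 in KO28, 31.5 and 24.3 in Scr13 and 29.5 and 30.4 in Scr16. The highest KO library lay far below the lowest Scr library in both treatments. The KO mean was 2.86% of the Scr mean untreated (0.929 ± 0.851 against 32.4 ± 2.54) and 3.10% after doxorubicin (0.896 ± 0.522 against 28.9 ± 3.20; SD, n = 4). Without the first untreated KO28 replicate the untreated share was 1.75%, and after doxorubicin it was 1.99% for KO11 alone and 4.21% for KO28 alone.

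FUCA2 was low but detected in every KO library. It was at 2.15 and 0.964 normalized CPM in untreated KO11 and 2.88 and 1.09 in KO28, against 29.9 and 33.6 in Scr13 and 29.3 and 38.0 in Scr16. After doxorubicin it was at 2.43 and 1.45 in KO11, 2.22 and 3.35 in KO28, 31.4 and 32.2 in Scr13 and 21.3 and 33.1 in Scr16. The groups did not overlap, and the KO mean was 5.42% of the Scr mean untreated (1.77 ± 0.911 against 32.7 ± 4.02) and 8.01% after doxorubicin (2.36 ± 0.781 against 29.5 ± 5.52; SD, n = 4).

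C9orf64, the queuosine salvage enzyme, was lowered rather than near silent. It was at 4.68 and 2.23 normalized CPM in untreated KO11 and 1.14 and 1.09 in KO28, against 27.7 and 27.5 in Scr13 and 27.1 and 27.5 in Scr16. After doxorubicin it was at 4.10 and 3.72 in KO11, 4.19 and 5.92 in KO28, 30.2 and 25.7 in Scr13 and 31.0 and 21.0 in Scr16. The KO mean was 8.33% of the Scr mean untreated (2.29 ± 1.68 against 27.4 ± 0.274) and 16.6% after doxorubicin (4.48 ± 0.981 against 27.0 ± 4.62; SD, n = 4). Without the first untreated KO11 replicate the untreated share was 5.42%. By clone the share was 12.6% in KO11 and 4.07% in KO28 untreated, and in the opposite order, 14.5% and 18.7%, after doxorubicin. KO and Scr libraries did not overlap for any of the 5 genes in either treatment. Every KO library lay below every Scr library for 5% of all genes tested untreated and for 6.42% after doxorubicin, and nothing is read from the 5 genes' count, since this contrast chose them. In bulk RNA, fewer cells with a transcript and less of it per cell cannot be told apart.

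**Figure D1:**
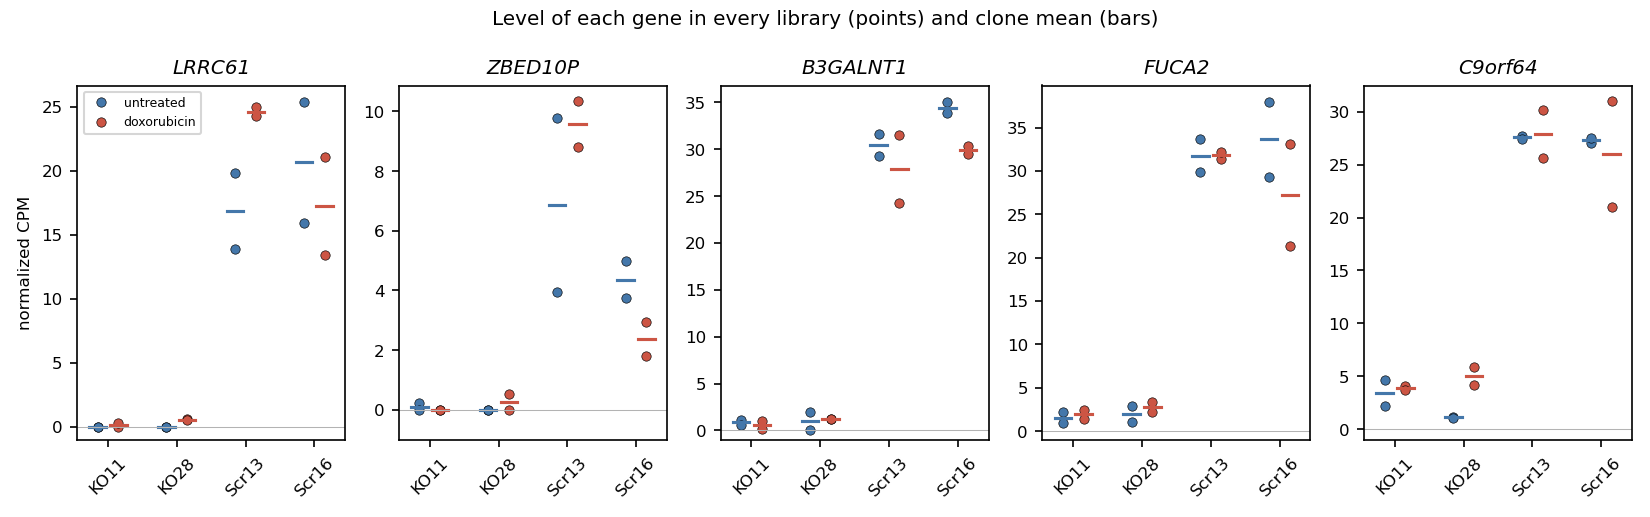
Normalized CPM (linear axis, a separate scale for each gene) of the 5 genes in the 16 libraries by clone, untreated in blue and after doxorubicin in red, with bars at the mean of 2 replicates. Each KO library lies below every Scr library for all 5 genes, and over both KO clones C9orf64 was at 8.33% of its Scr mean untreated and at 16.6% after doxorubicin.

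Per kilobase of exon, FUCA2 and C9orf64 were the most abundant of the 5 genes in untreated Scr libraries, at 10.5 to 13.6 and 9.92 to 10.2 normalized CPM per kb. B3GALNT1 ranged from 7.001 to 8.38, which lay within the 5.08 to 9.29 of LRRC61, so these neighbours in the order were not separated. ZBED10P was lowest, at 1.28 to 3.34 normalized CPM per kb. In untreated KO libraries the means per kb were 0.838 for C9orf64, 0.635 for FUCA2, 0.222 for B3GALNT1, 0.0188 for ZBED10P and 0 for LRRC61.

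To set these levels against other genes, the KO share of the Scr mean was taken for the 11188 genes with a Scr mean of at least 5 normalized CPM in both treatments. The median share was 99.6% untreated and 100.09% after doxorubicin, and for 9 genes it was under 10% in both treatments, among which LRRC61, ZBED10P, B3GALNT1 and FUCA2 ranked 1, 2, 4 and 7 by the larger of their 2 shares. The other 5 were GTSF1 (larger share 2.47%), a zinc finger protein of the piRNA pathway, AC023824.6 (3.30%), an unclassified transcript, PRTFDC1 (4.65%), PRPH (8.20%), the peripheral neuron filament peripherin, and EMILIN2 (8.70%), an extracellular matrix protein. Just outside the limit were FAR2 (11.2%), ZNF662 (11.5%) and DLG2 (11.9%), while C9orf64 ranked 18 at 16.6%. In the opposite direction 5 of 11182 genes met the same limit.

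**Figure D2:**
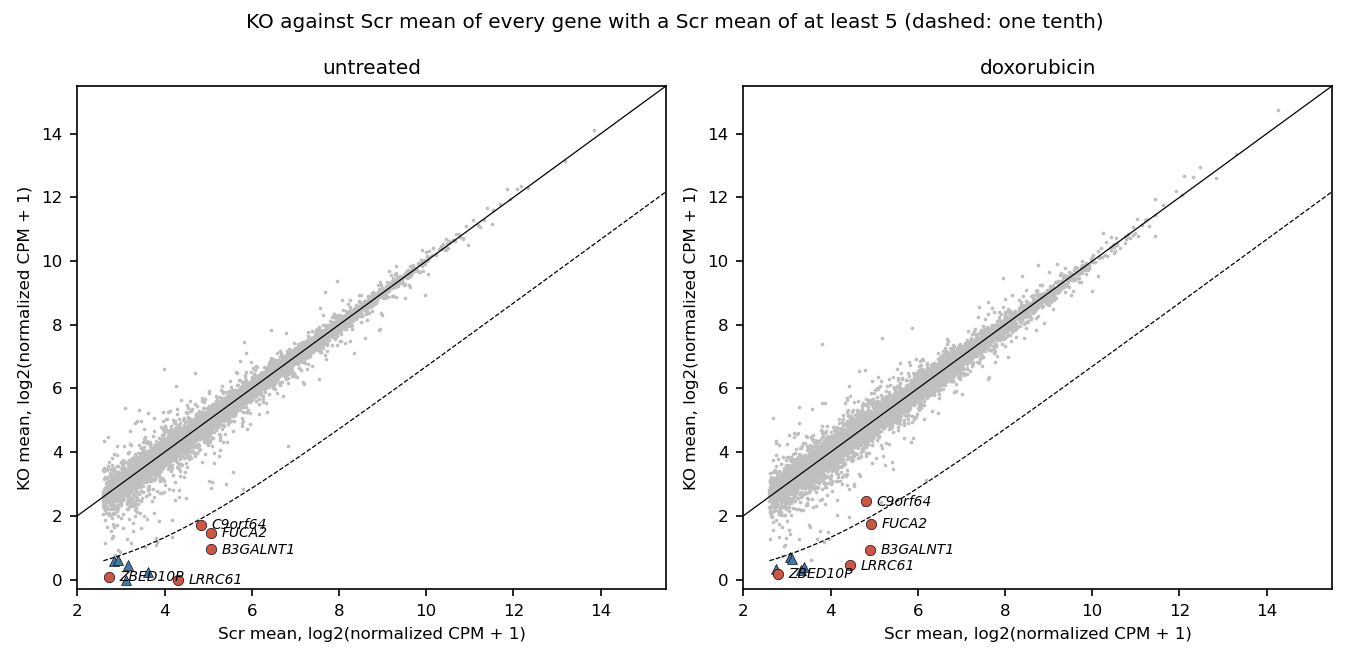
KO mean against Scr mean of 11188 genes, both as log2(normalized CPM + 1), untreated (left) and after doxorubicin (right), with the 5 genes as red circles, the other 5 genes under 10% of Scr in both treatments as blue triangles, the line of equal levels solid and 10% of Scr dashed. C9orf64 lies under the dashed line untreated and above it after doxorubicin.

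The response of the 5 genes to doxorubicin within Scr clones was not used to choose them and was tested, as were the clone differences, by limma on log2(normalized CPM + 1) with p-values adjusted over all genes tested. In Scr clones 12.3% of 14378 genes were called at an adjusted p under 0.05, and 0 of the 5 genes (0 at an unadjusted p under 0.05, and 0 by edgeR). Their log2 fold changes ran from -0.16 for B3GALNT1 (SE 0.12, 95% interval -0.41 to 0.08, adjusted p = 0.400) to 0.15 for LRRC61 (SE 0.20, -0.26 to 0.56, adjusted p = 0.690). ZBED10P had the widest interval, -0.68 to 0.54.

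Between the control clones, Scr16 against Scr13, 0.0348% of genes were called and 0 of the 5 (1 at an unadjusted p under 0.05, ZBED10P, and 0 by edgeR). ZBED10P differed most, with a mean of 3.37 normalized CPM in Scr16 and 8.22 in Scr13 (log2 fold change -1.06, SE 0.29, 95% interval -1.67 to -0.45, adjusted p = 0.583 by limma). The other 4 genes lay between -0.13 (LRRC61) and 0.14 (B3GALNT1). Without the first untreated Scr13 replicate the ZBED10P difference was -1.40 and passed (adjusted p = 0.0328, limma).

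In KO clones 19.6% of 14513 genes were called after doxorubicin, and C9orf64 was the only one of the 3 testable genes among them. Its mean went from 2.29 to 4.48 normalized CPM (log2 fold change 0.85, SE 0.28, 95% interval 0.27 to 1.43, adjusted p = 0.0342 by limma), a rise seen in both KO28 libraries, while in KO11 the treated values lay between the untreated ones. An exact two-sided permutation test of the same 4 against 4 libraries, which ignores the clone, gave p = 0.114, with 0.0286 the smallest it allows. The call was lost without either untreated KO28 replicate, either treated KO28 replicate or the second untreated KO11 replicate (adjusted p of 0.0830 to 0.157, limma), with edgeR on the recovered reads (adjusted p = 0.0821) and with no filter on low values (adjusted p = 0.198, limma). FUCA2 (0.31, SE 0.29, adjusted p = 0.504) and B3GALNT1 (0.04, SE 0.35, adjusted p = 0.964) did not pass, and LRRC61 and ZBED10P were too low to test. The difference between the C9orf64 responses of KO and Scr clones was not tested.

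Between the KO clones, KO28 against KO11, 0.138% of genes were called and 0 of the 3 testable genes (0 at an unadjusted p under 0.05, and 0 by edgeR). The log2 fold changes were 0.24 for B3GALNT1 (95% interval -0.47 to 0.95), 0.28 for FUCA2 (-0.30 to 0.87) and -0.36 for C9orf64 (-0.94 to 0.22). In the untreated libraries alone the C9orf64 difference was -1.02 (SE 0.42, adjusted p = 0.268, limma). These intervals reach differences of nearly 1 on the log2 scale, so a moderate difference between the KO clones was not detectable at these levels.

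**Figure D3:**
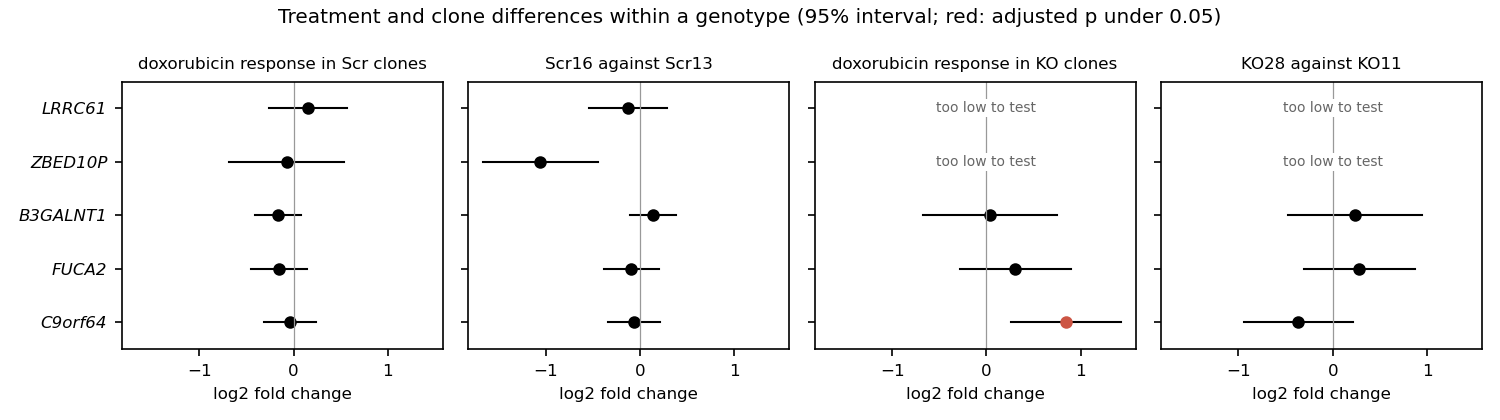
Log2 fold changes (points) with 95% intervals (lines) of the 5 genes for the doxorubicin response in Scr and in KO clones and for the clone differences within each genotype. C9orf64 in KO clones (0.85, red) was the one value with an adjusted p under 0.05, and 2 genes were too low to test in KO clones.

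The 5 nearest expressed genes on each side of each locus gave 40 distinct neighbours, of which 37 could be tested untreated and 38 after doxorubicin. In the KO against Scr comparison 4.84% of 14364 genes were called untreated and 8.69% of 14572 after doxorubicin, against 1 and 4 of these neighbours. The neighbours' median log2 fold changes were 0.01 untreated and 0.01 after doxorubicin, and those of all genes -0.01 and 0.01. ACTR3C, whose start lies 1086 bases from that of LRRC61 on the other strand, was at 2.10 ± 0.981 normalized CPM in untreated KO and 3.29 ± 1.46 in Scr (SD, n = 4; log2 fold change -0.45, SE 0.29, adjusted p = 0.540, limma). NMD3, a ribosome export factor that starts 688 bases from B3GALNT1 on the other strand, was at 51.6 ± 13.2 in untreated KO and 55.4 ± 5.17 in Scr (SD, n = 4; -0.14, SE 0.14, adjusted p = 0.765, limma). Whether the authors' counting used strand is not given in the sources used here, and where genes on opposite strands overlap their reads may not be separated.

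The neighbours that passed lay beside FUCA2 and C9orf64. PLAGL1, a zinc finger gene 429 kb from FUCA2, was higher in KO untreated (log2 fold change 0.64, SE 0.17, adjusted p = 0.0259) and after doxorubicin (0.70, SE 0.18, adjusted p = 0.0153, limma). PHACTR2, 25.2 kb from FUCA2, passed after doxorubicin (0.56, SE 0.15, adjusted p = 0.0170, limma). Beside C9orf64, RMI1, a partner of the BLM helicase, was lower after doxorubicin (-0.40, SE 0.12, adjusted p = 0.0345), and NTRK2, the BDNF receptor, was higher (7.28 ± 0.640 normalized CPM against 2.53 ± 0.633, SD, n = 4; 1.24, SE 0.23, adjusted p = 0.000964, limma). With either KO clone alone, and with no filter on low values, the PLAGL1, PHACTR2 and RMI1 calls were lost, and the NTRK2 call was lost with KO28 alone (adjusted p = 0.0518, limma). Leaving out single libraries ended the PLAGL1 call for 4 of 8 libraries untreated (adjusted p up to 0.105) and 2 of 8 after doxorubicin (up to 0.0918), the PHACTR2 call for 2 (up to 0.0877) and the RMI1 call for 5 (up to 0.110, limma).

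Within 1 Mb of LRRC61 and ZBED10P, 0 of 27 other genes passed in either treatment by limma or by edgeR (1 untreated and 6 after doxorubicin at an unadjusted p under 0.05). Near B3GALNT1, TRIM59 was lower in KO, at 0.0964 against 3.35 normalized CPM untreated and 0.215 against 3.10 after doxorubicin (log2 fold changes -1.94, SE 0.29, adjusted p = 0.000177 and -1.75, SE 0.29, adjusted p = 0.000313, limma). TRIM59 passed the filter through its 4 Scr libraries alone, so it had to differ to be tested and was not tested when any of them was left out. With no filter its adjusted p was 0.00549 untreated and 0.00290 after doxorubicin (limma). SMC4, a condensin subunit, was lower after doxorubicin (-0.28, SE 0.07, adjusted p = 0.0136, limma), a call that 2 of 8 single libraries ended when left out (adjusted p up to 0.0570), as did taking KO11 alone (adjusted p = 0.0643) or KO28 alone (adjusted p = 0.196, limma). TRIM59 and SMC4 were 2 of 12 genes tested there after doxorubicin, and TRIM59 was 1 of 11 untreated.

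**Figure D4:**
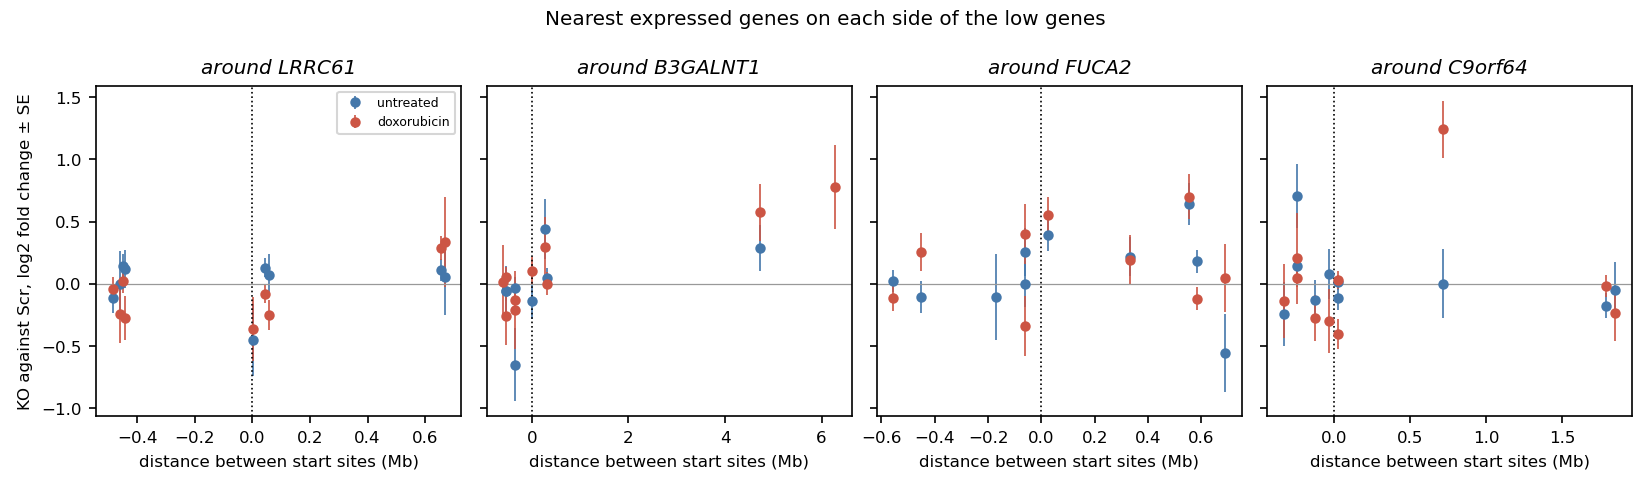
KO against Scr log2 fold change ± SE of the 5 nearest expressed genes on each side, by distance of their start from that of the low gene in Mb (dotted line at 0), untreated in blue and after doxorubicin in red. Most points lie within 0.5 of 0, and NTRK2 (1.24 after doxorubicin) stands highest.

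Other genes of the same pathways were examined from lists. In queuosine modification 0 of the 3 other genes tested untreated, and 0 of 4 after doxorubicin, passed between KO and Scr (limma; 0 at an unadjusted p under 0.05, and 0 by edgeR), while QTRT2, a subunit of the transglycosylase that inserts queuine, fell with doxorubicin in KO clones (log2 fold change -0.53, SE 0.13, adjusted p = 0.00403, limma). In glycosphingolipid synthesis, the pathway of B3GALNT1, 0 of 14 other genes passed untreated (limma; 4 at an unadjusted p under 0.05, and 0 by edgeR) and 1 after doxorubicin, ST6GALNAC5, a sialyltransferase of gangliosides, which was lower in KO (-0.49, SE 0.13, adjusted p = 0.0162, limma); 2 of 8 single libraries ended this call when left out (adjusted p up to 0.0716), and it was lost with KO11 alone (adjusted p = 0.104) and KO28 alone (adjusted p = 0.184, limma). The medians of the list were -0.01 and 0.03.

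Of 13 other genes of fucose supply, transfer and removal, 1 passed in each treatment. This was FUT4, a fucosyltransferase of Lewis x synthesis, at 0.649 against 2.58 normalized CPM untreated and 0.494 against 3.70 after doxorubicin (log2 fold changes -1.14, SE 0.29, adjusted p = 0.0210 and -1.67, SE 0.30, adjusted p = 0.000805, limma). The untreated call was lost with edgeR (adjusted p = 0.0525), with no filter on low values (0.0947, limma), with KO11 alone (0.0845) and without any 1 of 5 of the 8 libraries (adjusted p up to 0.110, limma). The list medians were 0.0003 and 0.01. Of 15 lysosomal glycosidases, 0 passed between KO and Scr in either treatment (limma; 1 in each at an unadjusted p under 0.05, 0 by edgeR; medians 0.002 and 0.03). With doxorubicin MAN2B1, GAA and IDUA rose in Scr clones, and in KO clones these rose as well, while GLA, the alpha-galactosidase, fell. In Scr clones the MAN2B1 and IDUA calls were each lost without any 1 of 3 of the 8 libraries (adjusted p up to 0.0833 and 0.0840) and with no filter on low values (0.113 and 0.0821, limma), which also ended the IDUA call in KO clones (adjusted p = 0.0564, limma). GAA, the acid alpha-glucosidase, had log2 fold changes of 0.42 (SE 0.08) in Scr and 0.39 (SE 0.08) in KO clones, and GLA one of -0.78 (SE 0.17) in KO clones (adjusted p of 0.00130, 0.00121 and 0.00139, limma). Of 6 other ZBED genes 0 passed in any comparison by limma or edgeR, and 2 had an unadjusted p under 0.05 between KO and Scr in each treatment.

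The cells kept the markers of SH-SY5Y. The 12 adrenergic neuroblastoma markers summed to 7621.8 to 8954.3 normalized CPM per library, led by STMN2. Among them GATA3 was higher in KO untreated (log2 fold change 0.32, SE 0.09, adjusted p = 0.0344), a call lost without any 1 of 5 of the 8 libraries, with KO11 alone (adjusted p = 0.323) and with no filter on low values (adjusted p = 0.248), and HAND1 was higher after doxorubicin (0.40, SE 0.08, adjusted p = 0.00248, limma).

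Fibroblast markers moved with the 5 genes in the opposite direction. Their sum was 312.3 normalized CPM in KO and 149.6 in Scr untreated, and 309.7 and 115.9 after doxorubicin. Of those tested, 5 of 7 (COL1A1, COL3A1, DCN, LUM and PDGFRA) and 4 of 6 (the same without PDGFRA) were higher in KO. Untreated, COL1A1 and COL3A1 were lost with KO11 alone (adjusted p of 0.121 and 0.0587) and with no filter on low values (0.131 and 0.152, limma), and after doxorubicin COL1A1 was lost under both (0.0698 and 0.0595, limma). DCN in both treatments and LUM after doxorubicin passed the filter on low values through the KO libraries alone, and with no filter their adjusted p was 0.0322 and 0.000726 (DCN) and 0.000233 (LUM, limma). COL3A1, the most abundant, ranged from 6.88 to 215.1 over the 16 libraries. None of the 7 was at 3 reads or fewer in every library, and their part in the loss of the 5 genes was not tested. By library the sum was 249.1 to 348.6 in untreated KO against 85.6 to 252.5 in Scr, and 254.8 to 357.2 against 85.9 to 169.6 after doxorubicin. The first untreated Scr13 replicate, at 252.5, lay above the lowest untreated KO library, so the untreated groups overlapped in this sum. Epithelial markers summed to at most 5.95, with KRT8 at 3 reads or fewer in every library, and CD14, the blood marker measured, reached at most 1.67.

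Across the 16 libraries the 5 genes correlated with each other (Pearson r 0.903 to 0.991 on log2(normalized CPM + 1)), a description that the shared split between KO and Scr libraries fixes. Within the 8 Scr libraries alone r ran from -0.46 (FUCA2 and C9orf64) to 0.67 (LRRC61 and ZBED10P). The genes with a pattern most like the mean of the 5 were ADAM22 (r 0.988), KIF21A (0.982), DLG2 (0.974), MLH3 (0.974) and PARP14 (0.970). ADAM22, an abundant synaptic membrane protein, was at 486.7 normalized CPM in untreated KO against 996.5 in Scr, so a likeness in pattern did not mean a like depth of loss.

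Taken one by one, the patterns most like LRRC61 were ADAM22, PNPLA4, KIF21A, TRIM59 and FUCA2 (r 0.975 to 0.990). For ZBED10P they were LBX2, PCDHB12, CFLAR, C5orf63 and LRRC61 (0.948 to 0.957). For B3GALNT1 they were FUCA2, DLG2, LRRC61, KIF21A and PARP14 (0.969 to 0.991), and for FUCA2 they were B3GALNT1, DLG2, LRRC61, MLH3 and UNC13D (0.971 to 0.991). For C9orf64 they were ADAM22, KIF21A, ABCD2, LRRC61 and TSPYL5 (0.959 to 0.974). PNPLA4 and LBX2 had 0 reads in the 4 untreated KO libraries, against means of 2.96 and 3.03 normalized CPM in Scr.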

How the data were processed

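Poly(A) RNA of 16 SH-SY5Y libraries was sequenced from directional libraries. The submitters' processing notes list bcl2fastq, HISAT2 2.1.0, HTSeq, edgeR and GRCh38. The annotation release, the strand setting of the counting and the filters are not given in the sources used here. What the authors deposited is a normalized signal, normalized CPM, in which reads are scaled by library, in one table of untreated and one of doxorubicin libraries. Each value was a whole multiple of what 1 read is worth (100% within 0.01 reads, largest deviation 5.39e-05), so whole reads were recovered. The scaling factors had a geometric mean of 1.002 over all 16 libraries and 1.012 and 0.992 within the tables; whether the tables were scaled together is not given, and doxorubicin responses and clone comparisons were therefore repeated with CPM from summed reads. The authors' own columns (log fold change, p-value, q-value and a ranking) were not used. All columns of library values were assigned, with 0 left over.

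Symbols and positions came from GENCODE 29 by Ensembl ID (95.9% of IDs). Genes reaching 1 normalized CPM in 4 or more of 8 libraries were tested with limma 3.58.1 (abundance trend, log2(value + 1), Benjamini-Hochberg, adjusted p under 0.05) in R 4.3.3. These fold changes understate those of low genes. Clone was a term in doxorubicin responses and treatment in clone comparisons. KO was compared with Scr within a treatment. The scripts were tested on simulated data. Alternatives were a pseudocount of 0.5, no filter, edgeR 4.0.16 quasi-likelihood tests on recovered reads, the replicate block, no clone term, 1 KO clone alone, untreated libraries alone and each library left out. The genes named were the 5, neighbours and genes within 1 Mb that passed, genes under 10% of Scr, the 5 most alike by Pearson r, list genes that passed, and TRPM2; the genes beside the limit, ACTR3C and NMD3 were named after their values were seen. The members and the lists were chosen with earlier results of these data known. Python 3.11.15 computed descriptions and exact permutation tests. Some list genes that passed a test are not reported here.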

Additional observations from a re-analysis of the deposited data

Results flagged for a closer look

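Of 19 groups of 4 libraries (1 gene, genotype and treatment each), 3 held a library far from the other 3 by Dixon's ratio. ZBED10P was at 0.220 normalized CPM (4 reads) in the first untreated KO11 replicate and at 0.523 (8 reads) in the first doxorubicin KO28 replicate, with 0 reads in the other 3 KO libraries of each treatment. With 3 libraries at 0, any reads in the other one give the largest ratio possible, so these 2 cannot be set against a chance rate. FUCA2 was at 21.3 in the first doxorubicin Scr16 replicate, below the other 3 Scr libraries, and that library also had the fewest reads on genes, 10481177. Chance flags about 1 in 20 groups. The cause was not tested.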

How the results depend on the processing

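With another scaling or a Scr library left out, the KO shares of Scr of the 5 genes moved by no more than the SD between KO libraries. Leaving out a KO library or taking 1 KO clone could not pass that limit, since a mean of some of 4 values stays within it. Those settings are thus no check of stability. Single libraries moved the shares of ZBED10P, B3GALNT1 (2.86% to 1.75%) and C9orf64 (8.33% to 5.42%) by over 1.5 times. By clone, the untreated C9orf64 share was 12.6% in KO11 and 4.07% in KO28. With no filter on low values the calls fell to 831 for doxorubicin in Scr clones, 0 for Scr16 against Scr13, 0 for KO28 against KO11 and 368 for KO against Scr untreated, with more genes tested. By edgeR on recovered reads the 2 clone comparisons gave 2 and 10 calls, and with untreated libraries alone 1 and 69. With 1 KO clone alone, KO against Scr after doxorubicin gave 611 (KO11) and 538 calls (KO28). Leaving out single libraries gave 1100 to 1739 calls for doxorubicin in Scr clones (1100 without the second untreated and 1102 without the first doxorubicin Scr13 replicate), 1 to 32 for Scr16 against Scr13 (32 without the first untreated Scr13 replicate), 3 to 91 for KO28 against KO11 (91 without the first doxorubicin KO28 replicate), 508 to 678 for KO against Scr untreated, and 814 to 1314 after doxorubicin (814 without the first doxorubicin KO11 replicate). The causes were not tested. CPM from summed reads, chosen after seeing the data, gave 1882, 5, 2896 and 20 calls for the comparisons within a genotype.

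Replicate numbers were not used to pair the samples, and same-numbered libraries deviated together (r over 0.1) in 1 or 2 of 6 pairs. The replicate block gave 2113, 7, 2948, 25, 697 and 1365 calls in the 6 comparisons, against 1774, 5, 2846, 20, 695 and 1266 without it. The cause of the higher counts was not tested. The block changed no call of a single gene named here. For single genes, alternatives other than leaving out a library kept the call or its absence in 358 values and lost it in 50, and leaving out a library did so in 447 and 84, with 1 call gained. TRIM59 and DCN in both treatments, and LUM after doxorubicin, gave no value for 4 of 8 single libraries left out, since they then failed the filter. Direction turned in 0 of the called values. LRRC61 and ZBED10P, at 0 to 9 reads in each KO library, were too low to test within KO clones.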
